A study of Homo sapiens with 6 samples.

Results

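The genes examined here encode the machinery that acidifies endosomes and sorts what has been taken into them. This machinery comprises the vacuolar proton pump (V-ATPase), the ESCRT complexes, retromer, sorting nexins, and the VPS-named tethers and lipid transfer proteins. The genes were chosen by a rule on symbols, with earlier results of these data known. It took every gene whose symbol starts with ATP6V0 or ATP6V1, CHMP1 to CHMP7 or VPS and a number. Added to these were the sorting nexins SNX1, SNX2, SNX3, SNX6, SNX17 and SNX27, and 8 further genes (HGS, STAM, STAM2, TSG101, PDCD6IP, EEA1, ATP6AP1 and ATP6AP2). This gave 86 of the 25680 gene symbols in the files. Of these, 79 fell into 14 groups by complex and role, and 7 were antisense, pseudogene or read-through symbols that the name pattern also takes.

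RNA had been sequenced from U87, an established human glioblastoma line labelled as wild type. All cells had received 500 nM of EPP6, a cyclic peptide carrying the fluorescent dye rhodamine, for 1 h at 37 °C, before they were detached and sorted by fluorescence. High uptake names the brightest 30% of cells and low uptake the dimmest 30%, with 3 libraries each, numbered 2, 3 and 4. Cells without peptide do not stand beside them, so every difference below is between the 2 ends of 1 treated population.

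Once a vesicle has been taken up, the V-ATPase pumps protons into it: the V1 sector in the cytosol splits ATP and the V0 sector in the membrane passes the protons. ESCRT-0, -I and -II gather ubiquitin-tagged receptors, and ESCRT-III filaments with the ATPase VPS4 pinch them off into vesicles inside the endosome, on the way to the lysosome. Retromer and sorting nexins take cargo the other way, back to the Golgi or the cell surface, and the HOPS, CORVET and GARP tethers let endosomes, lysosomes and Golgi membranes fuse with the right carriers.

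Total counts per library ranged from 13712263 to 40742857. The 86 genes held 0.664%, 0.631% and 0.659% of counts in high replicates 2, 3 and 4, and 0.672%, 0.655% and 0.660% in low replicates 2, 3 and 4. A filter on low counts left 79 of the 86 genes among 14598 tested. The 7 genes it removed were ATP6V0A4, ATP6V1G2, ATP6V1G3, CHMP4C, VPS52 and the pseudogenes ATP6V0CP3 and CHMP1B2P. Of 7 tested markers of the line none passed the test below. VIM averaged 10534 ± 522 CPM (counts set to a common library size by TMM) in high-uptake cells and 10268 ± 338 CPM in low-uptake cells, while the glial genes SOX2, S100B and PTPRZ1 were at or near 0 and GFAP stood at 0.564 ± 0.295 CPM in high-uptake cells and 0.666 ± 0.327 CPM in low-uptake cells (SD, n = 3 each). The high and low values of 4 of the 7 (57.1%) did not overlap, against 24.4% of all tested genes. CHI3L1 averaged 113 ± 10.9 CPM in high-uptake cells and 57.0 ± 20.6 CPM in low-uptake cells (adjusted p = 0.0890 by edgeR and 0.0240 by limma). TNC (adjusted p = 0.0743 by edgeR and 0.0493 by DESeq2) and CD44 were also higher in high uptake, and OLIG2 was lower. Summed, the line's markers stood at 13217 to 14019 TPM in high uptake and 12390 to 12870 TPM in low uptake. Of immune genes, PTPRC, CD3E and MS4A1 were at or near 0, while CD68, also a lysosomal protein, stood at 267 ± 14.0 CPM in high-uptake cells and 254 ± 25.7 CPM in low-uptake cells, and HLA-DRA and CSF1R were also present. The 8 immune markers summed to 361 to 389 TPM in high uptake and 325 to 381 TPM in low uptake. Epithelial markers summed to 6.36 to 7.27 TPM in high uptake and 5.08 to 6.16 TPM in low uptake, with CDH1 and KRT5 at or near 0. Endothelial markers summed to 2.51 to 2.81 TPM in high uptake and 1.76 to 2.17 TPM in low uptake, with CDH5 and CLDN5 at or near 0. STMN2 of neurons was at 0 in every library. SNAP25, 1 of 4 tested neuronal markers, rose by 0.80 on the log2 scale (adjusted p = 0.00987), and the 6 neuronal markers summed to 40.5 to 48.0 TPM in high uptake and 29.4 to 33.2 TPM in low uptake. The part of these markers in the results below was not tested. The labels do not state whether replicates came from separate cultures, and p-values then measure only how these 6 samples vary, which may be technical.

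None of the 79 tested genes passed edgeR's quasi-likelihood test at an adjusted p of 0.05, where 4.29% of all tested genes did (626 of 14598). At an unadjusted p under 0.05 there were 8 of the 79 genes (10.1%), against 18.4% of all tested genes. They were VPS13D, CHMP1B, ATP6V1A, ATP6AP1 and VPS13B on the higher side in high uptake, and ATP6V0B, ATP6V1B1-AS1 and ATP6V0E2-AS1 on the lower side. DESeq2 called 2 genes, VPS13D higher (adjusted p = 0.0427) and ATP6V0B lower (adjusted p = 0.0487), where it called 5.99% of all genes, and limma called 0 of the 79 and 4.13% of all genes. With the replicate number as a block, edgeR called 14 of the 79 genes (17.7%), against 21.8% of all tested genes. The labels do not say whether equal numbers mark pairs. In bulk RNA, fewer cells that use a gene and less RNA of it per cell cannot be told apart.

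The fold changes were small as well as uncalled. The median log2 fold change, high over low uptake, was -0.00 over the 79 genes and -0.00 over all tested genes, with 39 of the 79 above 0 and 40 below. The ends of the range were ATP6V0D2 at -0.43 and VPS13D at 0.30. For 71 of the 79 genes (89.9%) the 95% interval of the difference lay within 1.5-fold either way, against 73.0% of all tested genes. For 55 of the 79 it lay within 1.3-fold, against 46.6% of all tested genes. The median standard error was 0.0957 over the 79 genes and 0.113 over all tested genes. Genes were not matched for level, so these shares are not read as particular to the complexes. The 8 with wider intervals were EEA1, ATP6V0D2, ATP6V1E2, ATP6V1B1, ATP6V1B1-AS1, VPS13A-AS1, ATP6V0E2-AS1 and ATP6V1G2-DDX39B, most of them genes of few counts. The 3 high values did not overlap the 3 low values for 12 of the 79 genes (15.2%), against 24.4% of all tested genes.

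**Figure D1:**
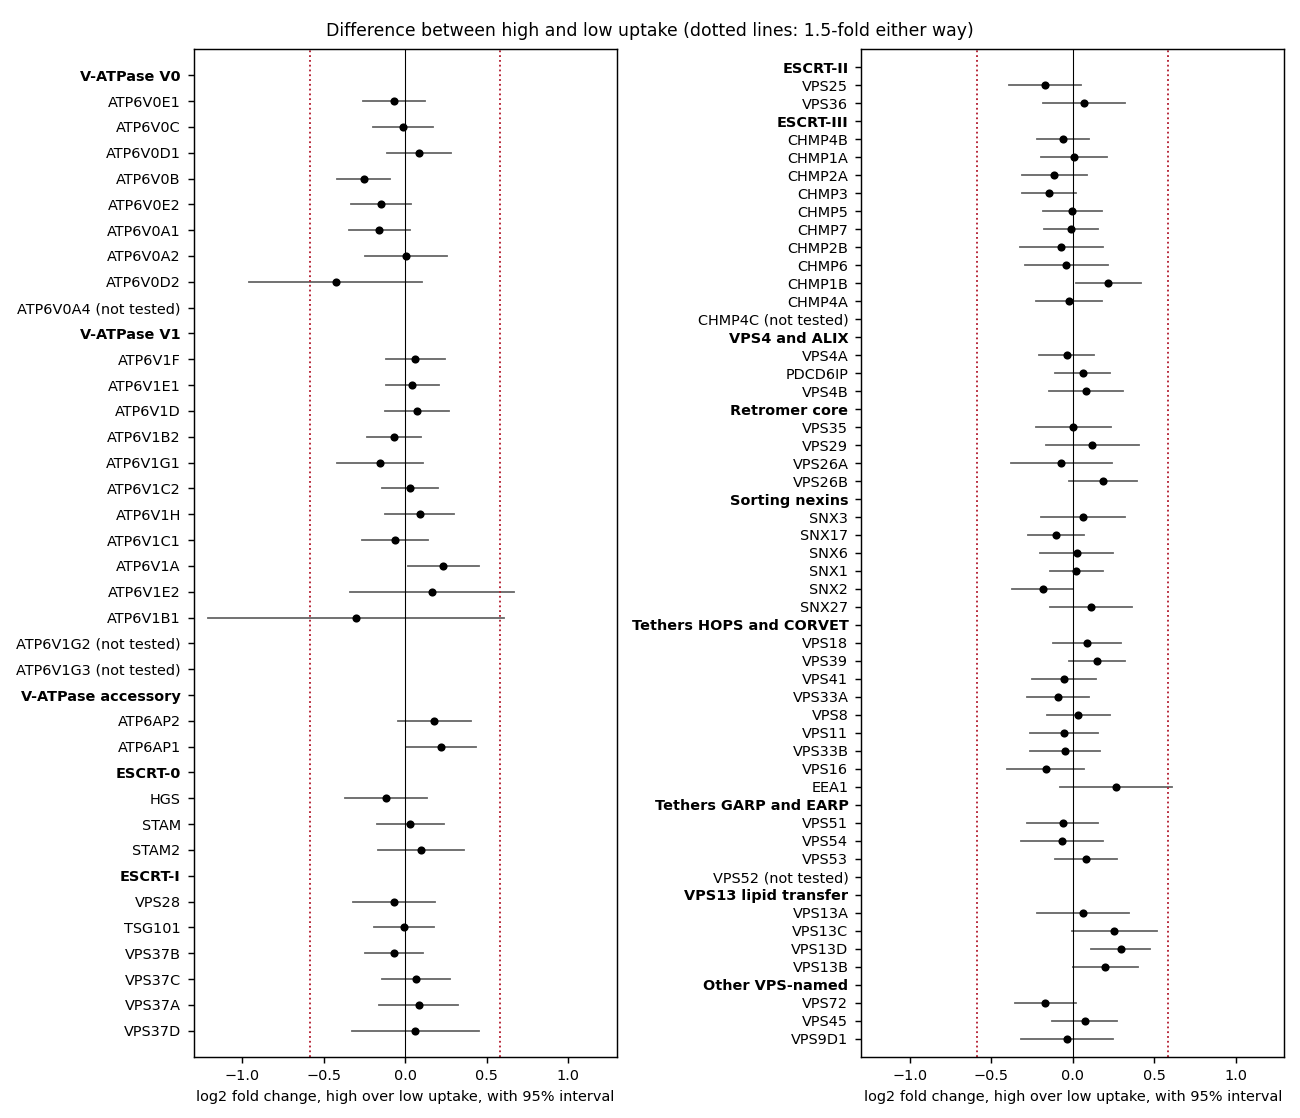
Log2 fold change, high over low uptake, of the 74 tested genes in complexes (points) with its 95% interval (lines), dotted lines at 1.5-fold either way and 5 untested genes left blank. Most points sit close to 0, and the intervals that clear it are those of ATP6V0B below and VPS13D, CHMP1B, ATP6V1A, ATP6AP1 and VPS13B above.

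Transcript level per length differed far more between genes than between the sorted groups. In the authors' TPM, a unit that allows for gene length, the tested genes ran from 0.0977 for ATP6V1G2-DDX39B to 728 for ATP6V1F, with a median of 54.4, and 68 of the 79 stood at 10 TPM or more. The low end is a read-through symbol whose counts equal those of DDX39B in every library. Its length behind the TPM is 17336 bases, against 2039 annotated exon bases, so 0.0977 is not read as a transcript level. Subunits of the same pump did not stand at the same level: ATP6V1F was 10.2 times ATP6V1A in TPM, although the pump holds more copies of subunit A. The summed TPM of the V-ATPase genes was 3154 ± 88.3 in high uptake and 3051 ± 44.4 in low uptake. For the ESCRT genes it was 2281 ± 42.2 in high uptake and 2297 ± 43.6 in low uptake (SD, n = 3 each). Both sums overlapped between the groups.

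**Figure D2:**
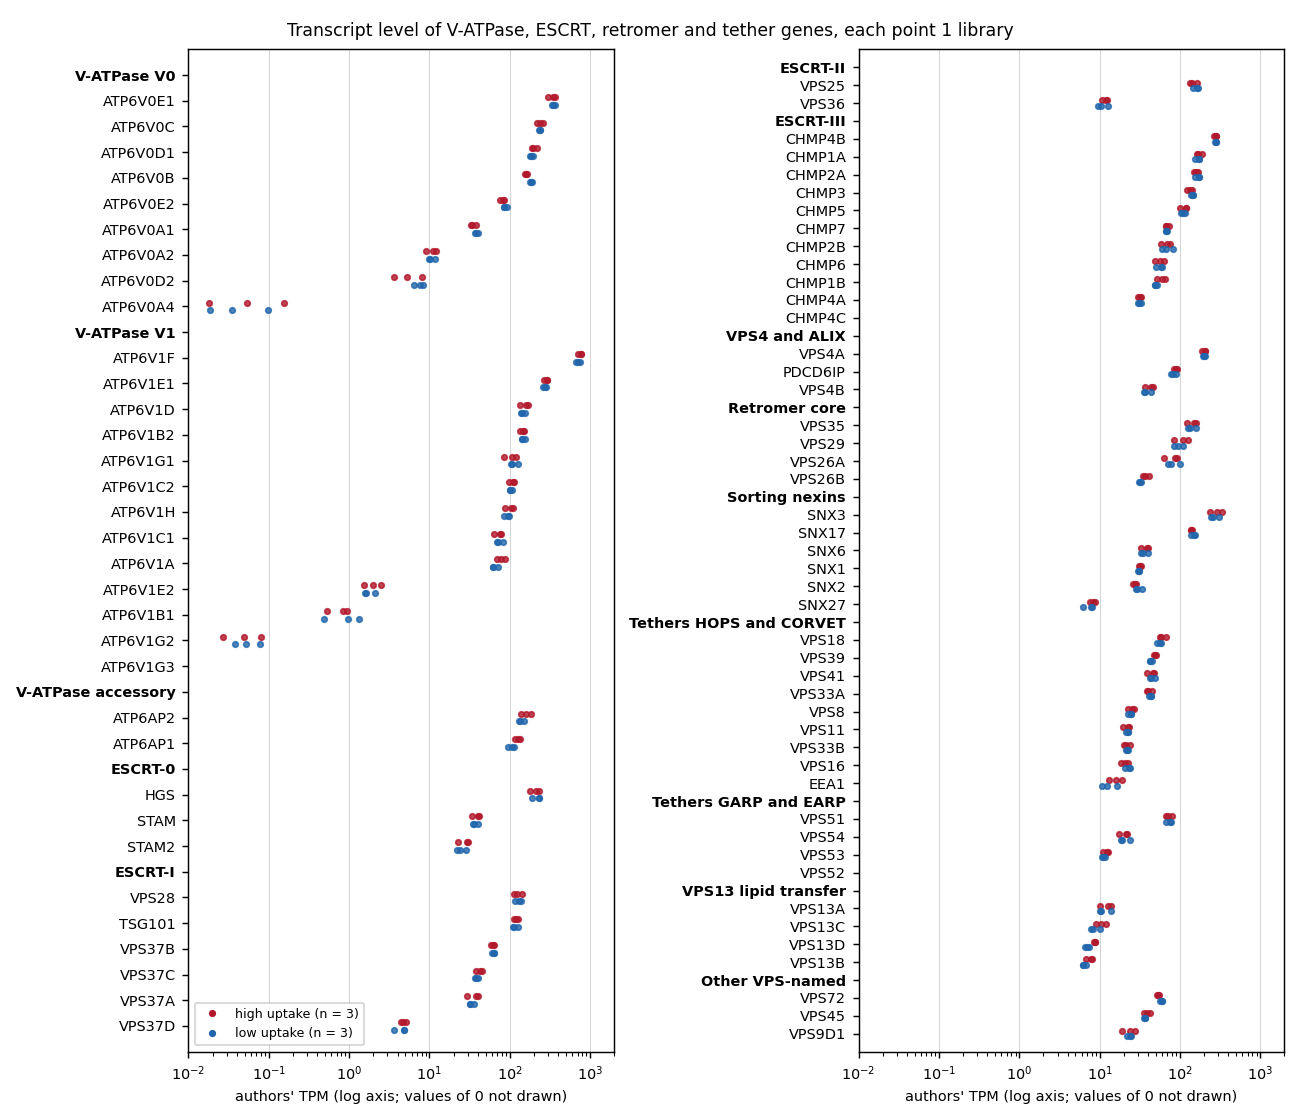
The authors' TPM on a log axis for the 79 genes in complexes, each point 1 library, high uptake above low uptake in each row. The groups overlap or lie close together in nearly every row, while genes of V0 and V1 range from near 0 to the 728 TPM of ATP6V1F.

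The membrane sector of the pump, V0, had 8 of the 9 genes chosen by symbol tested. Of the 8, 6 had a log2 fold change below 0 (median -0.11). TCIRG1, an a subunit whose symbol lies outside the pattern, is not among them. ATP6V0B, which encodes the proteolipid subunit c″ of the rotating ring, had 129, 139 and 131 CPM in high replicates 2, 3 and 4, and 152, 161 and 162 CPM in low replicates 2, 3 and 4. Every high value lay below every low value. Its log2 fold change was -0.25 (standard error 0.0751 with adjusted p = 0.0855), 1 of the 2 smallest p-values among the 79 genes. ATP6V0A1, an a subunit through which protons pass, had 55.7, 58.9 and 62.8 CPM in high uptake, and 63.9, 69.9 and 64.5 CPM in low uptake. These groups did not overlap either, with a log2 fold change of -0.16 (standard error 0.0857 with adjusted p = 0.355). ATP6V0E2 had 85.9, 98.4 and 91.2 CPM in high uptake, and 96.6, 108 and 101 CPM in low uptake, where high replicate 3 exceeded low replicate 2.

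ATP6V0C, which encodes the ring subunit c and stood level, had 109, 130.4 and 119 CPM in high uptake, and 119, 123 and 120.1 CPM in low uptake. High replicates 2 and 3 bracketed all 3 low values, and its log2 fold change was -0.02, with a 95% interval from -0.20 to 0.17. AC093525.2 overlaps 57.5% of the exon bases of ATP6V0C on the same strand, where a strand setting would not part their reads. The V0 gene of highest level, ATP6V0E1, stood at 340.5 ± 35.1 TPM in high-uptake cells and 349 ± 15.6 TPM in low-uptake cells (SD, n = 3 each). ATP6V0D2, a d subunit best known from osteoclasts and kidney, had the widest spread of the sector at 3.49, 5.12 and 7.68 CPM in high uptake, and 6.18, 7.64 and 8.26 CPM in low uptake. Its log2 fold change of -0.43 came with an interval from -0.96 to 0.10, the widest of the V0 genes. ATP6V0A4, the a subunit of kidney and inner ear, was near 0 in every library.

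The cytosolic sector, V1, had 11 of 13 genes tested, 7 above 0 and 4 below (median log2 fold change 0.04). ATP6V1A, the catalytic subunit that binds and splits ATP, had 165, 130.5 and 142 CPM in high uptake, and 135, 119 and 117 CPM in low uptake. High replicate 3 fell below low replicate 2, so the groups overlapped. Its log2 fold change was 0.24 (standard error 0.0991 with adjusted p = 0.232), while its partner in the hexamer, ATP6V1B2, stood at 177 ± 9.38 CPM in high-uptake cells and 185 ± 6.72 CPM in low-uptake cells (SD, n = 3 each). ATP6V1G1, a stalk subunit, had 78.0, 56.3 and 68.3 CPM in high uptake, and 84.7, 69.4 and 72.3 CPM in low uptake, a log2 fold change of -0.16 at an adjusted p = 0.540. ATP6V1F, part of the central rotor, stood at 752 ± 34.7 TPM in high-uptake cells and 703 ± 44.5 TPM in low-uptake cells. The regulatory subunit gene ATP6V1H, needed for ATP splitting to drive the pump, had a log2 fold change of 0.09 with an interval from -0.12 to 0.30.

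The B, E and G subunits were read almost wholly from their common copies. ATP6V1B1, the kidney form, stood at 0.770 ± 0.209 TPM in high-uptake cells and 0.929 ± 0.424 TPM in low-uptake cells, and ATP6V1E2, the testis form, at 2.01 ± 0.476 TPM in high-uptake cells and 1.78 ± 0.285 TPM in low-uptake cells (SD, n = 3 each). ATP6V1G3 had 0 counts in every library, which allows up to 0.219 CPM in the shallowest library and 0.0736 CPM in the deepest (3 counts, counting error only). Its chromosomal neighbours NEK7 and ZNF281 had 552 to 2162 and 499 to 2084 counts per library. ATP6V1G2, the brain form, had 4 to 14 counts per library, but so few reads also fell on its neighbour DDX39B (9 to 32 counts), a widely used splicing gene, that no level is read from it.

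Both accessory subunits, which help to assemble the pump and carry it through the secretory pathway, had higher means in high uptake. ATP6AP1 had 99.0, 117 and 105 CPM in high uptake, and 82.2, 101 and 92.7 CPM in low uptake, a log2 fold change of 0.22 (standard error 0.0979 with adjusted p = 0.256). ATP6AP2, also known as the prorenin receptor, had 151, 117 and 128 CPM in high uptake, and 127, 110.2 and 113 CPM in low uptake, a log2 fold change of 0.18 at an adjusted p = 0.384. For each gene 1 high value fell below the highest low value, so the groups overlapped. Their summed TPM was 285 ± 11.9 in high uptake and 243 ± 5.01 in low uptake (SD, n = 3 each), and the sums did not overlap (275 to 298 TPM in high uptake, 238 to 248 TPM in low uptake). Of the 14 groups by complex and role, 2 others had sums that did not overlap. The V0 sum was lower in high uptake, at 1059 to 1078 TPM in high uptake and 1083 to 1109 TPM in low uptake. Its means were 1071 TPM in high and 1096.5 TPM in low uptake, and ATP6V0B alone averaged 158 and 184 TPM. The V0 sum leaves out TCIRG1, an a subunit of V0 whose symbol the name pattern does not take. TCIRG1 averaged 143 ± 13.5 TPM in high-uptake cells and 140 ± 15.4 TPM in low-uptake cells. No difference of the whole V0 sector is therefore read from the V0 sum. The sum of HOPS, CORVET and EEA1 was higher, at 296 to 305 TPM in high uptake and 285 to 294 TPM in low uptake. EEA1, no subunit of either complex, averaged 16.1 TPM in high and 13.1 TPM in low uptake. No difference of HOPS and CORVET themselves is therefore read from that sum. These sums were not tested.

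**Figure D3:**
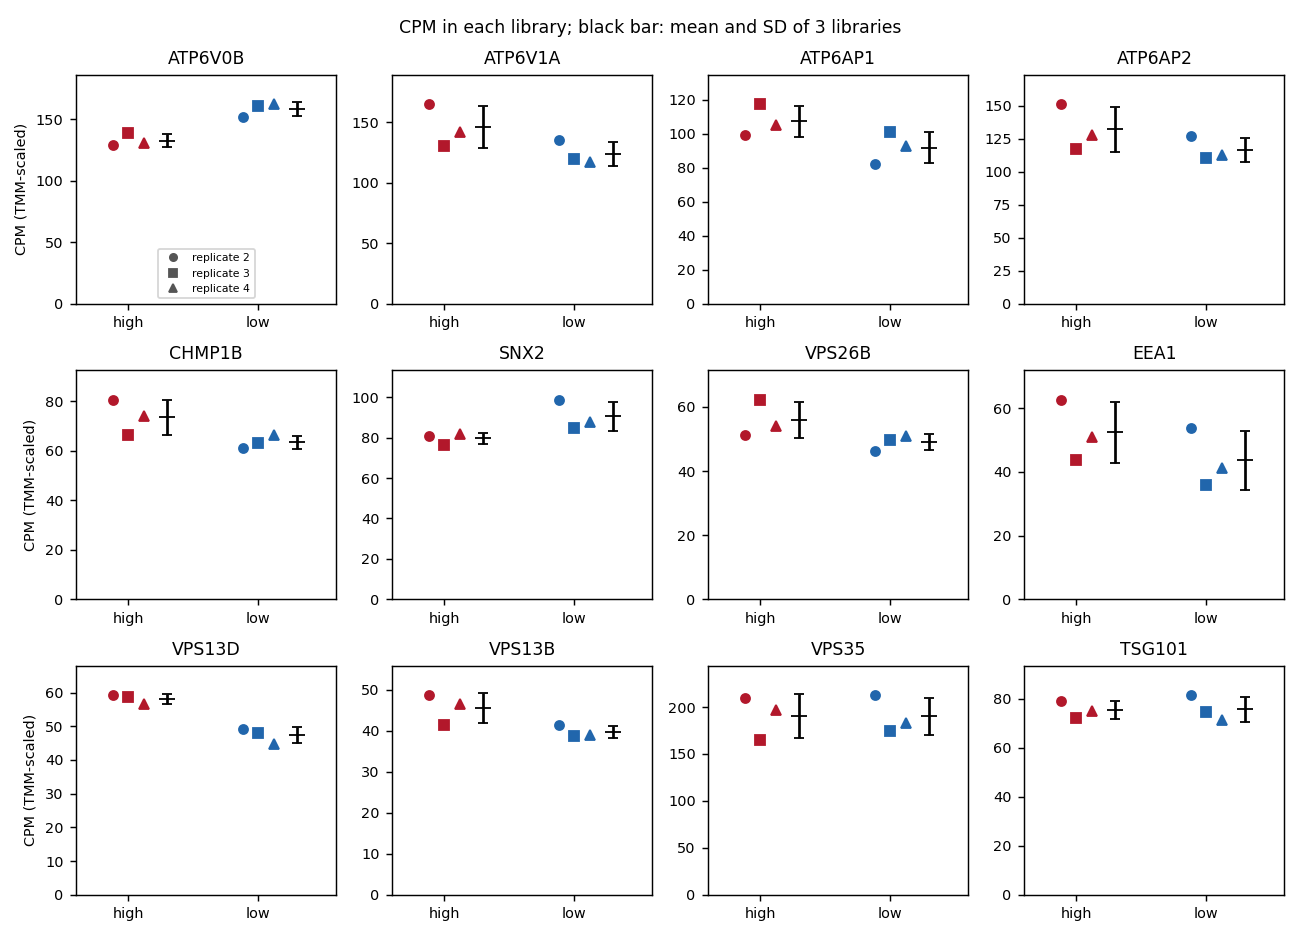
CPM of 12 genes in each library, high uptake left and low uptake right, with symbols for the replicate number and black bars for the mean and SD. All 3 high-uptake libraries lie below the low-uptake ones for ATP6V0B and SNX2 and above them for VPS13D, while VPS35 and TSG101 have nearly equal means.

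V-ATPase and other lysosomal genes are known targets of TFEB, TFE3 and MITF, which bind an element named CLEAR that holds the letters TCACGTG. Promoters are shown for the V-ATPase genes of smallest p that the RefSeq table held, so that these letters can be seen beside the values. Of the 5 genes ATP6V0B, ATP6V1A, ATP6AP1, ATP6V0A1 and ATP6V0E2, ATP6V1A had no entry. Each window runs from 250 bases before to 50 after the gene's start, on the plus strand of GRCh38.p14, a later build than the hg19 of the counts. The positions are chr1:43974710-43975009 for ATP6V0B, chr7:149872714-149873013 for ATP6V0E2 (1 of 3 starts listed), chrX:154428427-154428726 for ATP6AP1 and chr17:42458628-42458927 for ATP6V0A1. Capitals mark TCACGTG or its reverse complement CACGTGA, which overlap by 6 letters where both occur together.
ATP6V0B: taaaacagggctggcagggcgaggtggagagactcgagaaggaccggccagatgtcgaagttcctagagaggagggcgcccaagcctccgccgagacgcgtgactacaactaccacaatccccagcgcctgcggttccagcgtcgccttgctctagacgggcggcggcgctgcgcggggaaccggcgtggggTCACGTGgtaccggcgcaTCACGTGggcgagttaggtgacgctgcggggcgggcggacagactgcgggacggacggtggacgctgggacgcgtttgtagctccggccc
ATP6V0E2: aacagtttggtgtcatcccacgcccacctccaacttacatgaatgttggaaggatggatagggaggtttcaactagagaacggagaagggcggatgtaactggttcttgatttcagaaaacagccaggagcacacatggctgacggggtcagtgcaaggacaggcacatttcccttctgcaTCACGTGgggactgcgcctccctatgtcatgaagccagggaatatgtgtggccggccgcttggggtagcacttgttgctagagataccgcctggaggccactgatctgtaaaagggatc
ATP6AP1: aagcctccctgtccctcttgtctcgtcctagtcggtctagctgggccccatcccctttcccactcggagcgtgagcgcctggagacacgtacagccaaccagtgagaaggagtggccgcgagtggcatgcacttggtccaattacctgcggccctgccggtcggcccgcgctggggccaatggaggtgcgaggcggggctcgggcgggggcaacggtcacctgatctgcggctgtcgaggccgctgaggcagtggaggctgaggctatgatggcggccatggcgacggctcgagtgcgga
ATP6V0A1: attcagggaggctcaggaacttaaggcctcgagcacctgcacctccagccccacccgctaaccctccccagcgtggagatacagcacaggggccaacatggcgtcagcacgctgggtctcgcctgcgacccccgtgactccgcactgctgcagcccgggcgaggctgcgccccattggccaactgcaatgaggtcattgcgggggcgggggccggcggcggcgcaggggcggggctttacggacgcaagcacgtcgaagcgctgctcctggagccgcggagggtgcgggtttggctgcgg

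ATP6V0B, lower in all 3 high-uptake libraries, holds the letters at 2 places, starting 58 and 40 bases before its start. ATP6V0E2 holds them once in the window shown, 69 bases before that start. Of its other listed starts, the window chr7:149872718-149873017 holds them once, 73 bases before, and chr7:149873719-149874018 does not hold them. Neither ATP6AP1 nor ATP6V0A1 holds them in the window shown. Over the 62 of 86 genes with an entry, 10 (16.1%) had the letters on either strand, against 4.49% of all symbols in the table. The core CACGTG was held by 11, against 8.77% of all symbols. The 27305 symbols of the table were not limited to tested genes, so these shares do not compare like genes. Among V-ATPase genes 4 of 17 had them: ATP6V0B, ATP6V0D1, ATP6V0E2 and ATP6V1G1. The median log2 fold change was -0.06 for the 10 tested genes with the letters, 7 of them below 0, and 0.02 for the 48 tested genes with an entry and without them, 20 of them below 0. No test was made of that difference. A match says only that the letters are there.

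ESCRT transcripts differed little between the groups. All 24 of 25 genes that were tested had an interval within 1.5-fold, 10 lay above 0 and 14 below, and the median log2 fold change was -0.01. For ESCRT-0, HGS, which binds ubiquitin-tagged cargo and the endosomal lipid PI3P, had 213, 283 and 255 CPM in high uptake, and 232, 292 and 290.0 CPM in low uptake. The replicates of 1 group spanned more than the 2 means were apart, and its log2 fold change was -0.12 (standard error 0.115 with adjusted p = 0.645). STAM2, its partner, had 70.1, 52.7 and 66.4 CPM in high uptake, and 67.0, 53.3 and 56.7 CPM in low uptake, again overlapping.

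In ESCRT-I, TSG101, the subunit that binds ubiquitin and the late-domain motifs of viruses, had 79.2, 72.0 and 75.1 CPM in high uptake, and 81.4, 74.5 and 71.5 CPM in low uptake. Its means were nearly equal, at 75.4 CPM in high-uptake cells and 75.8 CPM in low-uptake cells, and the interval of its log2 difference ran from -0.19 to 0.18. VPS28 stood at 125 ± 15.9 TPM in high-uptake cells and 128 ± 11.6 TPM in low-uptake cells, and VPS37A and VPS37B had log2 fold changes of 0.08 and -0.07. ESCRT-II was represented by VPS25 and VPS36. VPS25 had 59.5, 73.5 and 63.1 CPM in high uptake, and 66.5, 77.8 and 75.9 CPM in low uptake (log2 fold change -0.17, adjusted p = 0.409), and VPS36 a log2 fold change of 0.07.

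ESCRT-III had 10 of 11 genes tested, 8 of them below 0, with a median log2 fold change of -0.03. CHMP4B, the main filament-forming subunit, had 189, 189.8 and 174 CPM in high uptake, and 186, 195 and 194 CPM in low uptake. Its log2 fold change was -0.06, with an interval from -0.22 to 0.10. CHMP3, which helps to cap and shape the filament, had 172, 162 and 182 CPM in high uptake, and 189, 197 and 186 CPM in low uptake, so the groups did not overlap (log2 fold change -0.15, standard error 0.0760 with adjusted p = 0.345). CHMP1B went the other way. It also forms filaments, on the outer face of membrane tubules, and had 80.5, 66.2 and 73.9 CPM in high uptake, and 61.1, 63.0 and 66.2 CPM in low uptake. The lowest high value and the highest low value met at 66.2 CPM, and its log2 fold change was 0.22 (standard error 0.0915 with adjusted p = 0.232). An antisense transcript, CHMP1B-AS1, overlaps 18.1% of its exon bases, and whether reads were counted by strand is not stated. Other genes given here overlap annotated neighbours too. RNF103-CHMP3 covers 24% of the exon bases of CHMP3 and AC026464.4 covers 29% of those of VPS4A, both on the same strand. On the other strand, AC139530.1 covers 20.6% of those of HGS.

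CHMP4C, the copy known for holding back the last cut of cell division, had 0 counts in every library, while its neighbours IMPA1 and ZFAND1 had 447 to 1927 and 250 to 1075 counts. The enzymes that act on the filament gave no call. VPS4A, the ATPase that takes ESCRT-III apart, stood at 176 ± 8.90 CPM in high-uptake cells and 181 ± 8.58 CPM in low-uptake cells, and VPS4B at 57.8 ± 6.39 CPM in high-uptake cells and 54.7 ± 4.79 CPM in low-uptake cells. PDCD6IP, which encodes the adaptor ALIX, stood at 239.9 ± 7.73 CPM in high-uptake cells and 230.0 ± 15.4 CPM in low-uptake cells (SD, n = 3 each).

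Retromer core genes were level in sum, with 367 ± 51.0 TPM in high-uptake cells and 350.1 ± 42.1 TPM in low-uptake cells. VPS35, the scaffold of the complex, had 209.6, 165 and 197 CPM in high uptake, and 212, 175 and 183 CPM in low uptake. The libraries numbered 2 were highest and those numbered 3 lowest in both groups, and the log2 fold change was 0.00, with an interval from -0.22 to 0.23. VPS26A had 102, 70.7 and 93.1 CPM in high uptake, and 111, 80.6 and 88.7 CPM in low uptake, in the same order of libraries. VPS29 followed that order too, at 71.2, 48.8 and 61.1 CPM in high uptake, against 61.7, 49.9 and 55.5 CPM in low uptake. The log2 fold change was 0.12 (standard error 0.131 with adjusted p = 0.688). VPS26B, a second form of the arrestin-like subunit, had 51.2, 62.2 and 54.2 CPM in high uptake, and 46.3, 49.6 and 51.0 CPM in low uptake. Its groups did not overlap, though high replicate 2 and low replicate 4 were all but equal, and its log2 fold change was 0.19 (standard error 0.0955 with adjusted p = 0.337).

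The sorting nexins bend membrane or bind cargo at endosomes. SNX2 had 80.7, 76.4 and 81.9 CPM in high uptake, and 98.7, 85.0 and 88.0 CPM in low uptake, with every high value below every low value. The log2 fold change was -0.19 (standard error 0.0850 with adjusted p = 0.274). SNX1, which can stand in for SNX2 in the same dimer, had 112, 106 and 105 CPM in high uptake, and 103, 107 and 107 CPM in low uptake, a log2 fold change of 0.02. SNX3, the highest of the 6 in TPM, stood at 287 ± 48.1 TPM in high-uptake cells and 269 ± 34.6 TPM in low-uptake cells. SNX17, which recycles integrins and LDL-receptor relatives, stood at 153 ± 1.87 CPM in high-uptake cells and 164 ± 11.8 CPM in low-uptake cells, and SNX27, which links PDZ-binding cargo to retromer, at 23.6 ± 1.67 CPM in high-uptake cells and 21.7 ± 2.90 CPM in low-uptake cells (SD, n = 3 each). Neither of these 2 passed the test, at adjusted p = 0.527 and 0.664.

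Several of these proteins have copies that can take each other's place, so the share of the leading copy in its family's TPM was compared within each library in 16 families, which needs no scaling between libraries. SNX1 made up 54.3%, 54.2% and 52.3% of the SNX1 and SNX2 sum in high uptake, and 47.3%, 51.9% and 51.0% in low uptake. This was the only family of the 16 in which the groups did not overlap, at an exact two-sided permutation p = 0.1, the smallest that 3 against 3 can give, and at p = 0.933 after adjustment over the 16 families. VPS26A held 67.9% ± 6.42 of the VPS26 sum in high uptake and 71.8% ± 4.04 in low uptake, and CHMP1A held 74.4% ± 3.47 of the CHMP1 sum in high uptake and 77.0% ± 1.01 in low uptake (SD, n = 3 each). Among a subunits of the pump, TCIRG1 (a3, the form of lysosomes and osteoclasts) led with 75.6% ± 2.39 in high uptake and 74.0% ± 2.44 in low uptake. ATP6V1B2, ATP6V1E1 and ATP6V1G1 each held over 99% of their families. ATP6V1C2 led ATP6V1C1 with 59.5% ± 0.661 in high uptake and 58.0% ± 1.48 in low uptake, but 31.1% of its exon bases overlap PDIA6 on the other strand, and without a stated strand setting the reads of the pair cannot be told apart.

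**Figure D4:**
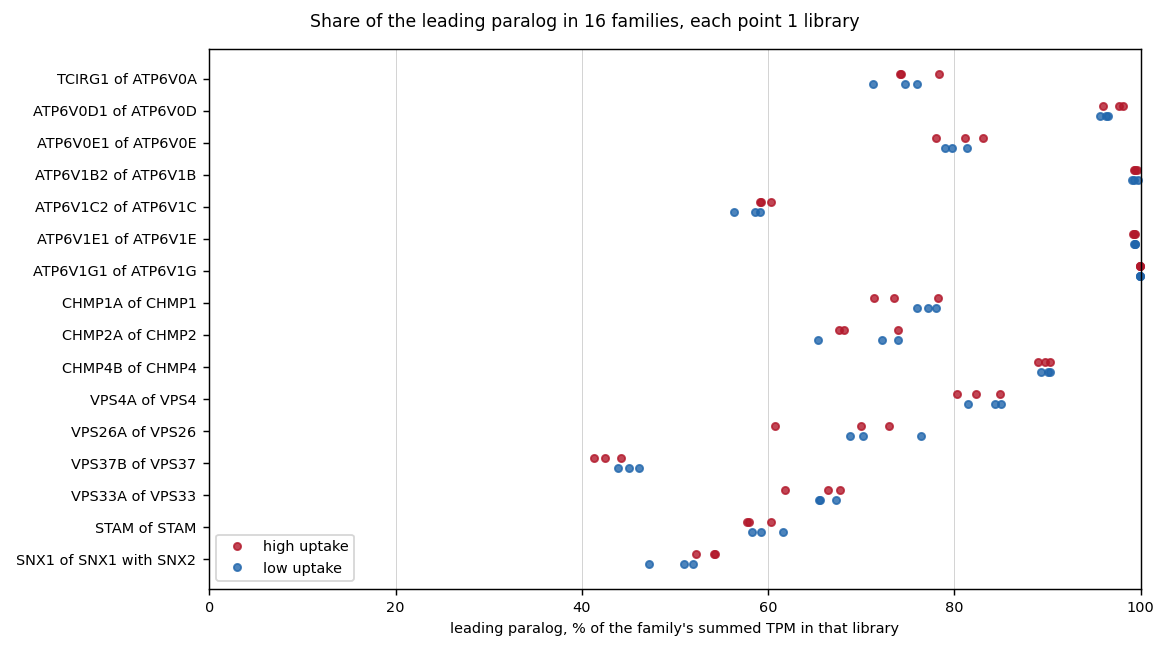
Share of the leading copy in the summed TPM of its family, in percent, each point 1 library, high uptake above low uptake in each of 16 families. SNX1 at the bottom is the only family whose points do not overlap between the groups, and its 3 high-uptake points lie at 52.3% to 54.3%.

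HOPS, CORVET and EEA1 tether endosomes before they fuse. Of these 9 genes, 4 lay above 0 and 5 below. EEA1, the long coiled tether of early endosomes that RAB5 recruits, had 62.6, 43.8 and 50.9 CPM in high uptake, and 53.9, 35.8 and 41.3 CPM in low uptake. The spread within a group was wide and the groups overlapped. Its log2 fold change was 0.27 (standard error 0.156 with adjusted p = 0.404). PLEKHG7 overlaps 18.4% of its exon bases on the other strand. VPS39, the HOPS subunit that binds RAB7, had 98.6, 102 and 93.1 CPM in high uptake, and 84.3, 88.7 and 91.2 CPM in low uptake, with no overlap (log2 fold change 0.15, standard error 0.0787 with adjusted p = 0.346). VPS18, a core subunit of both tethers, stood at 95.6 ± 10.4 CPM in high-uptake cells and 89.8 ± 6.37 CPM in low-uptake cells (SD, n = 3 each).

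GARP and EARP, which receive carriers at the Golgi and recycling endosomes, had 3 of 4 genes tested. VPS51 stood at 81.1 ± 8.23 CPM in high-uptake cells and 84.5 ± 7.85 CPM in low-uptake cells, and VPS53 at 67.1 ± 4.38 CPM in high-uptake cells and 63.4 ± 3.39 CPM in low-uptake cells (SD, n = 3 each). VPS52, the fourth subunit, was listed at 0 in every library. Its neighbours on chromosome 6 were nearly empty too, RPS18 of the ribosome with 1 count in all 6 libraries together and SLC39A7 with 0, so no level of VPS52 is read from these files.

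The 4 VPS13 genes encode long bridges through which lipids pass between membranes, and all 4 had a log2 fold change above 0 (median 0.23). VPS13D had 59.1, 58.8 and 56.5 CPM in high uptake, and 49.3, 47.9 and 44.8 CPM in low uptake. The gap between the groups was wider than the spread within either, and its log2 fold change of 0.30 (standard error 0.0828) had the smallest p of the 79 genes, at an adjusted p = 0.0725. VPS13B, linked to the Golgi and mutated in Cohen syndrome, had 48.5, 41.4 and 46.5 CPM in high uptake, and 41.2, 38.7 and 39.0 CPM in low uptake. The lowest high value stood just above the highest low value, with a log2 fold change of 0.20 (standard error 0.0905 with adjusted p = 0.267). VPS13C had 84.5, 63.8 and 71.6 CPM in high uptake, and 69.9, 55.7 and 58.8 CPM in low uptake, overlapping, with a log2 fold change of 0.26 at an adjusted p = 0.278. VPS13A, mutated in chorea-acanthocytosis, had a log2 fold change of 0.06 at an adjusted p = 0.851. These 4 are long genes of low level per length, VPS13A being the highest at 11.9 TPM, and once a length trend had been taken out of each library VPS13A turned to -0.05 and VPS13B, VPS13C and VPS13D stood at 0.07, 0.12 and 0.16.

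Of the other VPS-named genes, VPS72 encodes a chromatin subunit that the symbol pattern also takes. It had 33.6, 34.0 and 34.2 CPM in high uptake, and 35.8, 39.3 and 39.5 CPM in low uptake, without overlap (log2 fold change -0.17, standard error 0.0854 with adjusted p = 0.328). VPS45, which works with SNARE proteins in endosome fusion, had a log2 fold change of 0.07. Among the 5 tested antisense and read-through symbols, ATP6V1B1-AS1 had 3.05, 4.90 and 4.59 CPM in high uptake, and 5.51, 5.82 and 5.04 CPM in low uptake. ATP6V0E2-AS1 had 2.97, 3.12 and 3.18 CPM in high uptake, and 3.65, 3.91 and 4.16 CPM in low uptake. Neither group pair overlapped, and the log2 fold changes were -0.42 and -0.33 (adjusted p = 0.243 and 0.258). ATP6V0E2-AS1 overlaps 21.4% of the exon bases of ATP6V0E2, whose mean was also lower in high uptake, and without a stated strand setting their reads cannot be told apart.

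Libraries of the same group differed from each other in a way that went with base composition. Across the 79 genes, the difference in log2 CPM between high replicates 3 and 2 had a Pearson r of 0.71 with the GC content of the transcripts, and that between low replicates 3 and 2 had an r of 0.66. Over 13549 tested genes with a known GC content the same correlations were 0.57 and 0.59. The difference between the group means had an r of -0.27 over the 79 genes and 0.03 over all. These are descriptions across genes that share the same libraries, not tests. High replicate 3, the shallowest library, was the lowest of its group in 38 of the 79 genes and the highest in 31. The median within-group SD of log2 CPM was 0.12 over the 79 genes and 0.14 over all tested genes.

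**Figure D5:**
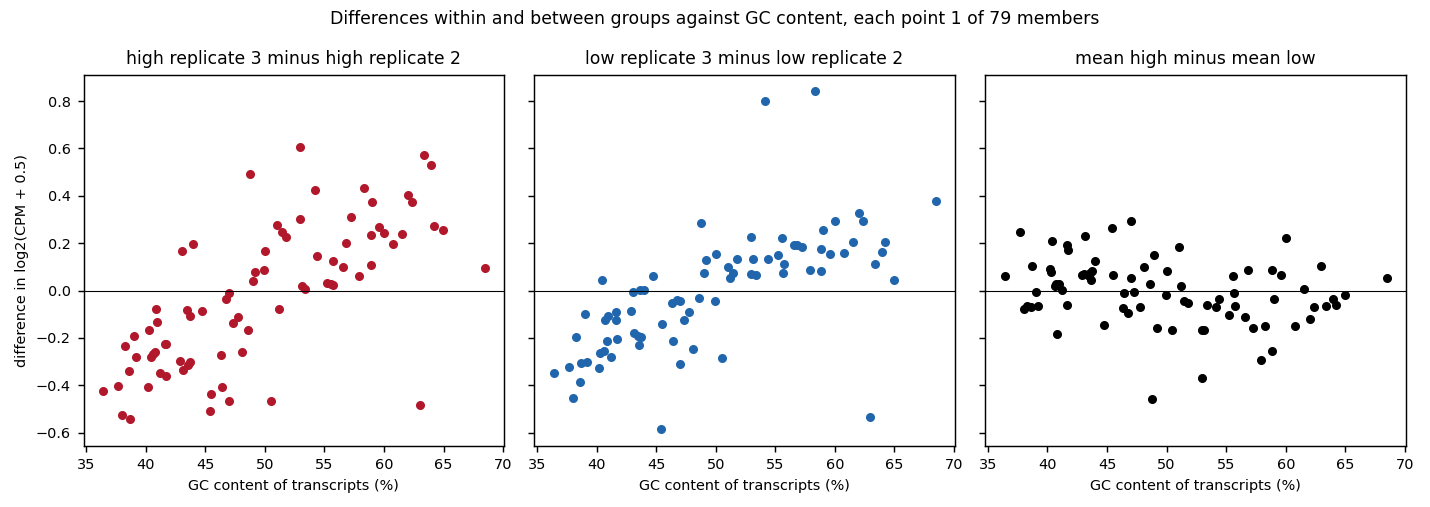
Difference in log2(CPM + 0.5) against GC content in percent for the 79 genes: high replicate 3 minus 2, low replicate 3 minus 2, and the mean of high minus the mean of low uptake. The first 2 panels slope upward, with r of 0.71 and 0.66, and the third does not, with r of -0.27.

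After removal of the trend that each library showed with GC content, edgeR called 8 of the 79 genes (10.1%), while it called 15.7% of all tested genes. The calls were ATP6AP1, ATP6AP2, ATP6V1A, CHMP1B, VPS13B, VPS13C and VPS13D, higher in high uptake, and ATP6V0B, lower. Under that fit ATP6V0B had a log2 fold change of -0.26 at an adjusted p = 0.00613, VPS13D 0.29 (0.00701), VPS13C 0.27 (0.00790), ATP6AP1 0.21 (0.0111) and ATP6V1A 0.25 (0.0117), sizes close to those without it. The calls thus depended on that setting, and the share of the 79 genes called lay below that of all genes.

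Genes that work beside these complexes were read from lists chosen by function. Of 22 tested genes of PI3P signalling, endosomal RABs and their tethers, RAB5B was the single call, where 4.29% of all tested genes were called. It had 114, 112 and 108 CPM in high uptake, and 91.5, 89.7 and 88.0 CPM in low uptake. RAB5B encodes 1 of the RAB5 GTPases of early endosomes, and it rose by 0.31 on the log2 scale (standard error 0.0744 with adjusted p = 0.0414), whereas RAB5A and RAB5C had log2 fold changes of 0.01 and -0.04. The call of RAB5B was lost with the length trend removed (adjusted p = 0.0753), with library totals (0.0598) or upper quartile scaling (0.0525), and with any 1 library left out (0.0567 to 0.199). None of 18 further ESCRT-related genes passed by edgeR. ANKRD13A, which binds ubiquitin on internalised receptors, came closest at 205 ± 9.64 CPM in high-uptake cells and 167 ± 10.2 CPM in low-uptake cells. Its log2 fold change was 0.29 (adjusted p = 0.0618 by edgeR and 0.0228 by DESeq2). None of 29 genes of retromer partners, the WASH complex and Commander passed by edgeR, the smallest p being that of SNX30. It stood at 50.8 ± 3.75 CPM in high-uptake cells and 40.6 ± 0.689 CPM in low-uptake cells (SD, n = 3 each). Its log2 fold change was 0.32 (adjusted p = 0.0632 by edgeR and 0.0277 by DESeq2). The 16 other V-ATPase genes, assembly factors included, gave no call, and ATP6AP1L had the smallest p (log2 fold change -0.64, adjusted p = 0.186). Nor did the 6 tested genes of the TFEB family and its regulators: TFEB had 3.47, 5.57 and 3.42 CPM in high uptake, and 3.44, 3.18 and 4.01 CPM in low uptake, TFE3 a log2 fold change of -0.02, and FNIP2 one of -0.20 (adjusted p = 0.292).

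A list of 2305 gene symbols that the authors deposited without values held 7 of the 86 genes (8.14%): ATP6AP1, ATP6V0B, ATP6V1A, CHMP1B, SNX2, VPS13C and VPS13D. It held 8.98% of all 25680 symbols in the files, of which only 14598 passed the filter on low counts used here. Of the 86 genes 79 passed it, so these shares do not compare genes of like level. Its name speaks of differential expression with a minimum count of 10 and a p-value of 0.05, without a tool or an adjustment. In the test above, none of the 7 passed at an adjusted p of 0.05, and 5 of them had an unadjusted p under 0.05. The other 2, SNX2 and VPS13C, had an unadjusted p = 0.0508 and 0.0520 by edgeR's quasi-likelihood test.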

How the data were processed

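RNA-seq of 3 high-uptake and 3 low-uptake libraries was analysed. Directional libraries had been made from total RNA, per the labels' protocols. Reads were processed with fastp, STAR and featureCounts on build hg19, per the submitters' processing notes. Versions, annotation, strand setting and the treatment of reads with several matches: not given in the sources used here. The authors deposited read counts by gene symbol beside their own TPM and FPKM columns, per the file headers. Counts were tested, TPM served for levels between genes and shares of paralogs, and FPKM served to recover gene length. The authors' list of symbols holds no values.

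Genes passing edgeR's filterByExpr (minimum count 10, minimum total 15) numbered 14598. They were tested with edgeR 4.0.16 (TMM, robust quasi-likelihood F-test, two-sided, no covariate, Benjamini-Hochberg over all tested genes, threshold 0.05). The SE is the log2 fold change divided by the square root of F. The procedure was tested on simulated data first. Alternatives were RLE, upper quartile and library-total scaling, 2 filters, DESeq2 1.42.0, limma 3.58.1, the replicate number as a block, left-out libraries, and trends with gene length or GC content removed (splines with 6 degrees of freedom). GC content was known for 92.8% of tested genes and overlapping exons were taken from GENCODE annotation of GRCh38. Promoters are from RefSeq.

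Members, lists and tests were chosen with earlier results of these data known. Genes with full values are, in each complex, the 2 of smallest p and the 1 of highest TPM, with others fixed by name, and, in each list of other genes, those past the threshold or else the 1 of smallest p. Others were named after their values were seen.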

Additional observations from a re-analysis of the deposited data

How the results depend on the processing

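Where edgeR called 0 of the 79 genes in either direction, RLE, upper quartile and library-total scaling, both filters, limma, the removal of the length trend and leaving out both libraries numbered 2 also gave 0. DESeq2 called 1 higher and 1 lower, and removing the GC trend 7 higher and 1 lower. Leaving out 1 library gave 0 to 1 lower, the 1 being ATP6V0B without high replicate 3. The labels do not say whether equal replicate numbers mark pairs. Same-number libraries deviated together at r = 0.452, 0.305 and 0.0873 for numbers 2, 3 and 4. Each high library went best with the low library of its number, but low replicate 4 went best with high replicate 3 (0.216). Low replicates 3 and 4 differed least of all pairs within a group, so this check cannot settle whether the numbers mark pairs. With the number as a replicate block, 9 genes were called higher and 5 lower, where 21.8% of all tested genes were called. The block with the length trend removed gave 5 and 4, where 18.9% of all tested genes were called, and the block with the GC trend removed gave 10 and 11, where 28.1% were. Genes at an unadjusted p under 0.05, 8 as tested, numbered 20 with the GC trend removed, 5 with the length trend removed, 23 with the block, 21 and 28 with the block and the length or GC trend removed, and 3 to 13 with 1 library left out (3 without low replicate 4, 13 without high replicate 3). Genes without overlap, 12 as tested, numbered 35 without both libraries numbered 2 and 12 to 27 with 1 library left out (27 without high replicate 3 or low replicate 2), which fewer values per group allow. The models and trends give no value for that count, so those alternatives were not run for it. Paralog families without overlap, 1 as tested, numbered 1 to 4 with 1 library left out. For genes at an unadjusted p and genes without overlap, the share of all tested genes under each alternative is not given here. A rise or fall of these counts is therefore not read as particular to the 79 genes.

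Of the alternatives for named genes, 764 kept direction and side of the threshold, 63 passed it newly, 9 no longer passed it (all for RAB5B, of its 19 alternatives), and 37 changed sign, all of these for genes near 0. With the length trend removed the log2 fold changes of ATP6V0C, ATP6V0E1, TSG101, VPS13A and VPS53 were 0.0407, 0.00334, 0.0362, -0.0450 and -0.0360, and with the block as well 0.0360, 0.00204, 0.0378, -0.0440 and -0.0347, with VPS35 at -0.00122. Without both libraries numbered 2, ATP6V0C, ATP6V1F and TSG101 were at 0.0377, -0.0101 and 0.0144. VPS35 was at -0.0212 with library totals, -0.0112 with upper quartile scaling and -0.00155 with the stricter filter. With 1 library left out, the ranges that crossed 0 were -0.0929 to 0.0473 for ATP6V0C, -0.0555 to 0.164 for SNX3, -0.0469 to 0.0461 for TSG101, -0.0415 to 0.200 for VPS13A, -0.0128 to 0.150 for VPS18, -0.185 to 0.0700 for VPS26A, -0.192 to 0.00953 for VPS28, -0.0168 to 0.234 for VPS29, -0.0712 to 0.0896 for VPS35, -0.0121 to 0.194 for VPS36, -0.0166 to 0.180 for VPS37A and -0.0820 to 0.00205 for VPS4A. The causes were not tested. No scaling moved the median of all genes by 0.1 on the log2 scale. For 24 of the 79 genes the interval reached beyond 1.3-fold on some side, and intervals and floors cover counting error or the spread of 3 libraries per group.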
